A study of Mus musculus with 74 samples.

Results

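Genes of the gp130 cytokine pathway were followed in mouse L4 dorsal root ganglia (DRG) after spinal cord or sciatic nerve injury. The ligand genes were Il6, Lif, Clcf1 and Cntf, the receptor genes were Il6st, Il6ra, Lifr, Osmr and Cntfr, and the feedback inhibitor was Socs3. They were chosen by name, as 10 of the 53379 gene IDs counted. The data came from 4 whole L4 DRG samples of uninjured mice, 4 samples taken 1 day (1d) after spinal cord injury (SCI), and 22 mice whose L4 neurons were sorted by fluorescence (FACS). Whole DRG came from wild type C57BL/6 females aged 10-12 weeks. Sorted neurons came from Thy1YFP16 females aged 10-20 weeks, in which a Thy1 transgene labels large diameter ascending sensory neurons with YFP. The sorted groups were 6 naive mice and 4 mice each 1d and 3d after sciatic nerve injury (SNI, a crush) or SCI (a T9/10 dorsal hemisection). Each sorted mouse gave 3 wells of about 100 YFP-positive cells, whose reads were summed per mouse. The labels tell mice apart but not litters or surgery days, so p-values measure the spread between these samples.

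Cytokines of the IL-6 family signal through receptor complexes that share gp130, the product of Il6st. IL-6 first binds IL-6 receptor alpha, LIF uses LIFR with gp130, CNTF and CLCF1 use CNTFR alpha with LIFR and gp130, and oncostatin M uses OSMR with gp130. Receptor-bound JAK kinases phosphorylate STAT3, which enters the nucleus and switches on target genes, among them Socs3, whose product binds gp130 and JAK and ends the signal. In injured peripheral nerve, LIF, IL-6 and CNTF are known injury signals to sensory neurons and glia, and SOCS3 is known as a brake on axon growth.

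The promoter stretches of Il6 and Socs3 are shown because they held a short motif of a factor known to act on the gene, and that of Il6ra because its gene rose after SCI. All are RefSeq sequences on GRCm38.p6, written 5′ to 3′ on the gene's strand, from the 250 bases before the RefSeq start with bases inside annotated exons left out. Capitals mark a match to TTCNNNGAA, the STAT motif, or to TGANTCA, the AP-1 motif. Each motif reads the same on both strands.
Il6, chr5:30012864-30013113, plus strand: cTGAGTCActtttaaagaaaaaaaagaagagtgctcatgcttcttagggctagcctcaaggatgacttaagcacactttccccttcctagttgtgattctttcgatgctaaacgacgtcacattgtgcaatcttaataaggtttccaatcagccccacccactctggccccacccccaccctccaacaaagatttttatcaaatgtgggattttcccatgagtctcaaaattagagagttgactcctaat
Il6ra, chr3:89913197-89913446, minus strand: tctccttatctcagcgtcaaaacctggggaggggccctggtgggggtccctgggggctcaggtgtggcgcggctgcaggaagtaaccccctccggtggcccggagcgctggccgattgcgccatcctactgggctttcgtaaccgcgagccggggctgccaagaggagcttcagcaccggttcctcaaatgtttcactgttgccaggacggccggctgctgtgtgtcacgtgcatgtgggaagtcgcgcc
Socs3, chr11:117969452-117969616, minus strand: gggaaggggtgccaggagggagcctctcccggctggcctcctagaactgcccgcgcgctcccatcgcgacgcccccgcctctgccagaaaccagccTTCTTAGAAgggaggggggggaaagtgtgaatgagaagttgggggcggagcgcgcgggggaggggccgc
The Socs3 match began 154 bases before the start, and the Il6 match 249 bases before it. Lif and Cntf each held 1 AP-1 match, and Il6ra, Il6st, Lifr and Cntfr held neither motif in their windows. The Osmr window lay wholly inside annotated exons and held neither. Clcf1 was not read. Across 32851 promoter windows of the same length, 7.02% held the STAT motif and 6.75% the AP-1 motif, so a match here is a description of the letters and says nothing about binding.

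Whole DRG samples held 21959030 to 44493319 reads in genes, and sorted mice 30518187 to 83599972. Reads from neuron genes (Snap25, Uchl1, Tubb3, Stmn2, Nefl, Nefh) were present in every sorted mouse, but in 20 of 66 wells the reads on 9 satellite glia and Schwann cell genes exceeded those on the neuron genes. These glia-rich wells came from 14 of the 22 mice: 6 of 18 naive wells, 3 of 12 at 1d and 4 of 12 at 3d after SNI, and again 3 of 12 at 1d and 4 of 12 at 3d after SCI. They held 24.17% of all sorted reads. Results on sorted mice are therefore given with and without them. In bulk samples, fewer cells of a type and less RNA per cell cannot be told apart.

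The receptor chains were far more abundant than the ligands in uninjured whole DRG. Per exon length, as RPKM (reads scaled to exon length and library size), Lifr stood at 103 ± 6.62 (SD, n = 4) and Il6st at 59.6 ± 3.83. Their ranges did not overlap, so the order of these leading receptor chains held in every library. Cntfr followed at 6.21 ± 0.723, Socs3 at 4.75 ± 0.668 and Osmr at 2.93 ± 0.314, where Cntfr and Socs3 overlapped and Osmr lay below both. Il6ra, the ligand-binding receptor for IL-6, was at 0.307 ± 0.0092 and did not stand apart from Clcf1 at 0.306 ± 0.108. The remaining ligands were near the detection limit, with Cntf at 0.188 ± 0.124, Lif at 0.109 ± 0.032 and Il6 at 0.0855 ± 0.050, and overlapped each other. The Cntf level is uncertain, because 847 of its 1073 exon bases on chromosome 19 (12763660-12765632, minus strand) overlap exons of Zfp91 on the same strand, and reads there could not be assigned to it.

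The comparison of whole DRG 1d after SCI with uninjured DRG asked which pathway genes change in the ganglion after an injury of the central axon branch. Transcripts of 2 receptor subunits rose, Il6ra 1.98-fold and Osmr 1.53-fold. The ligands, the common chain Il6st, Lifr, Cntfr and Socs3 did not pass the test. The test was edgeR's quasi-likelihood test, with an adjusted p under 0.1 over 17616 genes, and the background was 1.38% of all genes called higher. Of the 10 members, 8 had a mean of at least 10 reads and were tested.

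Il6ra (ENSMUSG00000027947.11, chr3:89864059-89913196, minus strand) gave levels in CPM (reads scaled to library size, without regard to length) of 2.62, 2.57, 2.67 and 2.75 in the uninjured libraries and 5.42, 5.03, 6.00 and 4.5 after SCI. Every SCI library lay above every uninjured library, and the uninjured libraries were close together. The log2 change was 0.99 (SE 0.12, adjusted p = 0.0062, edgeR), on 56 to 259 reads a library. Its exons share 242 bases with the antisense gene Gm42809, and reads of both genes cannot be told apart there unless strand was counted. Osmr (ENSMUSG00000022146.12, chr15:6813577-6874969, minus strand), the receptor chain that pairs with gp130 for oncostatin M, gave 34.0, 36.3, 31.5 and 40.4 CPM in uninjured DRG and 52.4, 53.1, 60.8 and 50.8 CPM after SCI. The groups again did not overlap. The log2 change was 0.61 (SE 0.092, adjusted p = 0.016, edgeR), on 726 to 2626 reads a library. These were the 2 of 8 tested members whose SCI libraries all exceeded the uninjured ones, against 4.92% of all genes tested.

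Red blood cell genes moved with this comparison. Their summed level ran from 13.4 to 21.3 CPM in uninjured DRG and from 20.7 to 88.6 CPM after SCI, 4 of 5 rose, and none was at 0. With that level as a covariate, Osmr kept a log2 change of 0.58 (adjusted p = 0.44, edgeR) and Il6ra one of 0.81 (adjusted p = 0.38), and 9 genes were called in all. Macrophage genes, which include cells known to carry IL-6 receptor, summed to 42.2 to 58.3 CPM in uninjured DRG and 55.3 to 61.9 CPM after SCI. One of the 7 rose (Cd163) and 1 fell (Cx3cr1), and none was at 0. Neutrophil genes summed to 6.27 to 13.5 CPM and 5.17 to 28.3 CPM, with 0 of 4 tested genes called by edgeR and 1 at an unadjusted p under 0.05. The covariate covered red blood cell genes only, and the part of macrophages and neutrophils in the 2 receptor changes was not tested. Both calls were made in each of the 8 fits that left out 1 library, with adjusted p from 0.0082 to 0.039 for Il6ra and from 0.017 to 0.066 for Osmr.

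**Figure D1:**
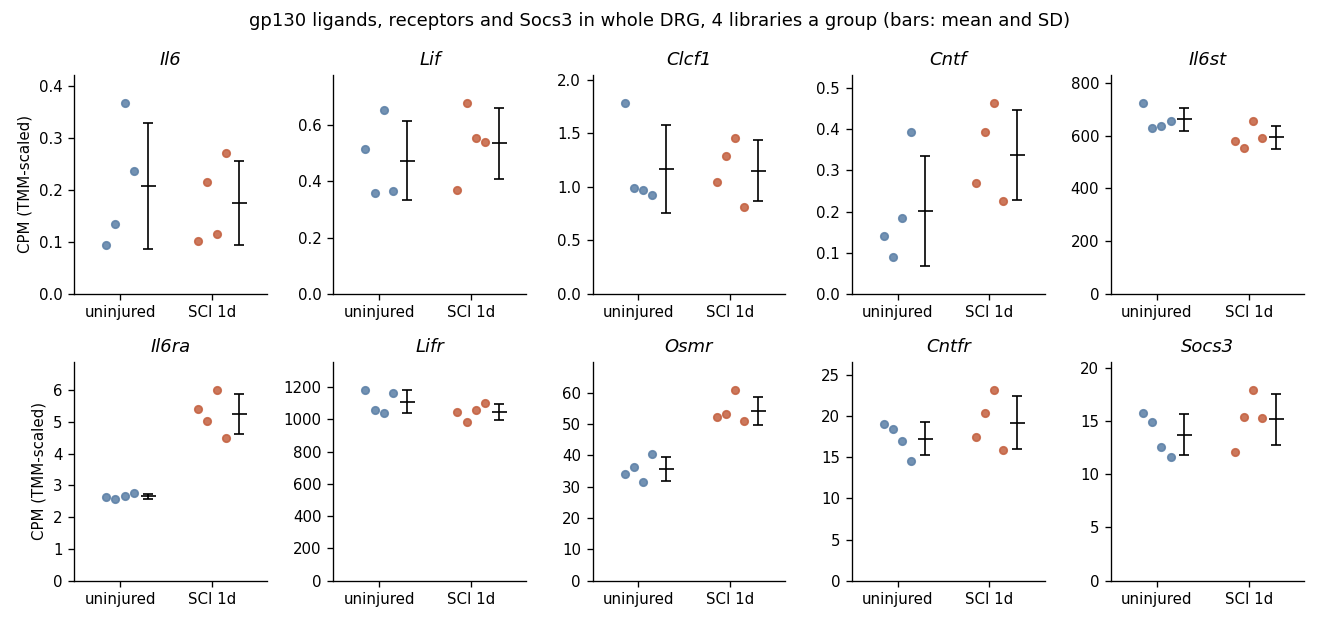
CPM of the 10 genes in whole DRG, 1 panel a gene, with 1 point a library (4 uninjured, 4 SCI 1d) and bars for mean and SD on axes that start at 0. Il6ra and Osmr are the panels whose groups do not overlap.

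Among the shared receptor chains, Il6st (ENSMUSG00000021756.12, chr13:112464070-112510086, plus strand) gave 722, 629, 636 and 657 CPM in uninjured DRG and 578, 554, 656 and 590 CPM after SCI. Most SCI libraries were below the uninjured ones, but the groups overlapped through SCI replicate 3. The log2 change was -0.15 (SE 0.071, adjusted p = 0.36, edgeR). Lifr (ENSMUSG00000054263.12, chr15:7090614-7197489, plus strand), the chain used by LIF, CNTF and CLCF1, gave 1182, 1057, 1043 and 1162 CPM and, after SCI, 1047, 986, 1058 and 1105 CPM. The groups overlapped and the log2 change was -0.08 (adjusted p = 0.60). Cntfr (ENSMUSG00000028444.17, chr4:41657498-41697089, minus strand), the subunit that binds CNTF and CLCF1, gave 19.0, 18.5, 17.0 and 14.6 CPM and, after SCI, 17.5, 20.4, 23.2 and 15.9 CPM. Its values were mixed between the groups, with a log2 change of 0.16 (adjusted p = 0.62).

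Socs3 (ENSMUSG00000053113.3, chr11:117966079-117970047, minus strand), whose transcript is commonly read as a mark of STAT3 activity, gave 15.8, 14.9, 12.6 and 11.6 CPM in uninjured DRG and 12.1, 15.4, 17.9 and 15.3 CPM after SCI. The groups overlapped, with a log2 change of 0.15 (SE 0.14, adjusted p = 0.66, edgeR). Over the 8 libraries, the genes whose log2 CPM ran most like that of Socs3, of 13760 compared, were Atp8b1 (Pearson r 0.95), Ccdc86 (0.94), Olfml3 (0.94), Lrig3 (0.92) and Lsp1 (0.92). Among the receptors, Cntfr had r 0.78, Osmr 0.37, Il6ra 0.35, Il6st 0.15 and Lifr -0.11. These values describe 8 libraries that also differ in depth and group.

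The ligands were low in whole DRG, and no ligand was called. Lif (ENSMUSG00000034394.14, chr11:4257557-4272514, plus strand) ran from 0.360 to 0.654 CPM in uninjured DRG and from 0.370 to 0.678 CPM after SCI, with a log2 change of 0.19 (SE 0.28, adjusted p = 0.81, edgeR). Clcf1 (ENSMUSG00000040663.8, chr19:4214238-4223490, plus strand), a ligand of the CNTF receptor, shares 311 exon bases with AC109138.7 on the same strand. It ran from 0.918 to 1.78 CPM and from 0.809 to 1.46 CPM, with a log2 change of 0.05 (SE 0.26, adjusted p = 0.95). Il6 (ENSMUSG00000025746.11, chr5:30013114-30019981, plus strand) had 2, 6, 14 and 9 reads in the uninjured libraries and 3, 6, 5 and 6 after SCI. Cntf (ENSMUSG00000079415.2) had 3, 4, 7 and 15 reads and, after SCI, 8, 11, 20 and 5. Both fell under the minimum of 10 reads on average and were left out. Without that minimum, over 35112 genes, the log2 changes were -0.37 (SE 0.50, adjusted p = 0.79, edgeR) for Il6 and 0.76 (SE 0.44, adjusted p = 0.62) for Cntf, and neither passed.

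The rest of the pathway was read from lists of its other genes. None of 7 JAK and STAT genes was called by edgeR, with 1 at an unadjusted p under 0.05 (background 14.6%), and the log2 changes of Jak1, Jak2 and Stat3 were 0.09, -0.06 and 0.05 (adjusted p from 0.76 to 0.77). The 10 brakes and adaptors also gave 0 calls and 1 gene at an unadjusted p under 0.05.

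Genes known as STAT3 targets held more calls. Of 14 tested, 4 rose, 0 fell, and 8 had an unadjusted p under 0.05, all higher, where 14.6% of all genes passed that limit in either direction. Their median log2 change was 0.59, beside 0.01 over all genes tested and 0.16 over the 8 members. The list was chosen with earlier results of these data known, so these values describe it and are no test of it. Serpina3n, a secreted protease inhibitor, gave 160, 166, 175 and 196 CPM in uninjured DRG and 283, 310, 274 and 294 CPM after SCI, with no overlap (log2 change 0.74, SE 0.076, adjusted p = 0.0019, edgeR). Tifa, an adaptor of NF-kappaB signalling, rose by a log2 change of 0.71 (adjusted p = 0.010) and the transcription factor Cebpd by 0.71 (adjusted p = 0.053). Gfap, the intermediate filament of reactive glia, rose by 1.34 (SE 0.33, adjusted p = 0.095) on 13 to 161 reads. Without single libraries the adjusted p of Gfap ran from 0.096 to 0.25 and that of Cebpd from 0.031 to 0.16, and with the red blood cell level as a covariate the adjusted p of these 4 genes ran from 0.13 to 0.76. That covariate left log2 changes of 0.79 for Serpina3n, 0.70 for Tifa, 0.57 for Cebpd and 0.85 for Gfap, and a median over the 14 targets of 0.087, beside -0.0093 over all genes. Glucocorticoid response genes moved in the same libraries: their summed level was 335 to 470 CPM in uninjured DRG and 521 to 621 CPM after SCI. Of these 6 genes 3 rose, with log2 changes of 1.17 for Zbtb16, 0.66 for Cdkn1a and 0.56 for Fkbp5. Without single libraries the adjusted p reached 0.0064 for Zbtb16, 0.16 for Cdkn1a and 0.13 for Fkbp5 (edgeR), and with the red blood cell covariate it was 0.063, 0.71 and 0.36. Their part in the STAT3 list was not tested.

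**Figure D2:**
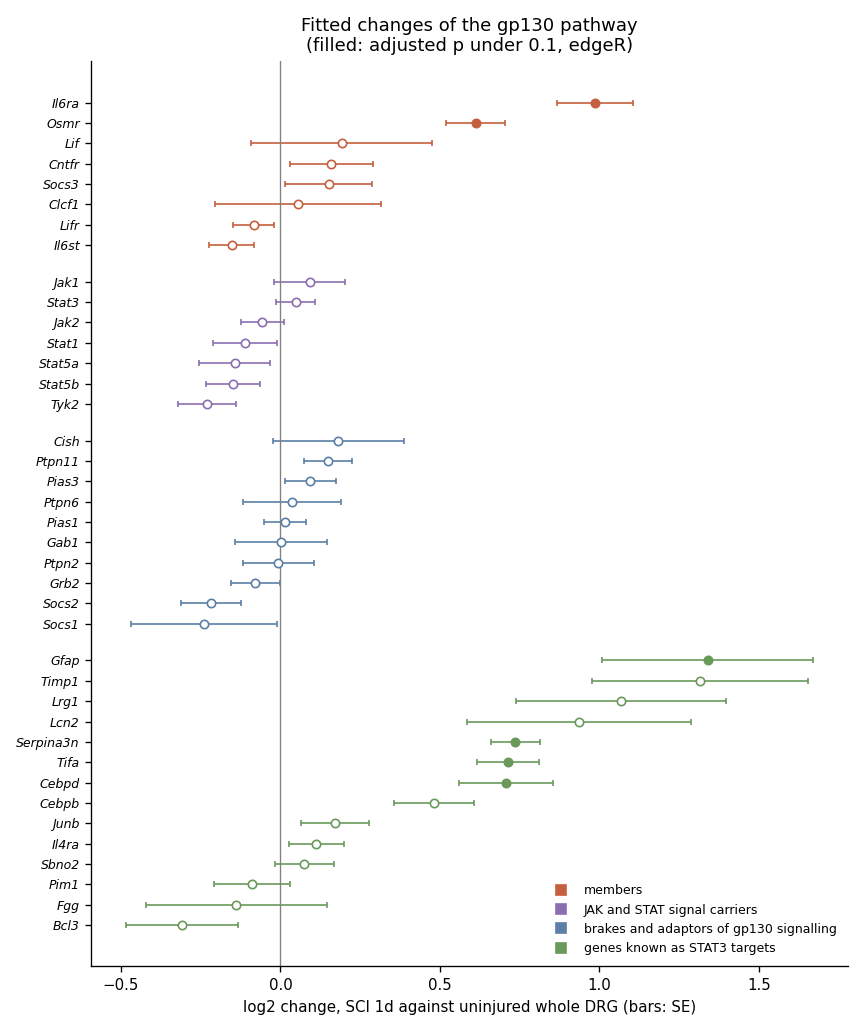
Fitted log2 change 1d after SCI against uninjured whole DRG for each tested gene of the 4 lists (x axis; bars are SE; filled points have an adjusted p under 0.1 in edgeR). Il6ra and Osmr are filled among the members, at 0.99 and 0.61, and Gfap, Serpina3n, Tifa and Cebpd among the STAT3 targets, while the JAK, STAT and brake genes lie near 0.

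In sorted wells the medians of Lifr, Cntfr and Il6 were higher in the wells that were not glia-rich, and those of Socs3 and Cntf in the glia-rich wells. Lifr had a median of 990 CPM in the 46 other wells, with values from 26.6 to 2010, and of 106 CPM in the 20 glia-rich wells, where the highest was 503. In 12 mice with both kinds of well it was higher in the glia-rich wells of 1. Cntfr showed the same contrast at a lower level, with medians of 9.64 and 0.0246 CPM and 0 of 12 mice higher in glia-rich wells.

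Il6 reached at least 1 CPM in 21 of 46 other wells, with a highest value of 87.3 CPM, and in 0 of 20 glia-rich wells, where the highest was 0.243 CPM. Only 0.15% of all its reads lay in glia-rich wells. Its reads thus lay almost wholly in wells rich in neuron transcripts, of which 17 had no Il6 read.

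Socs3 and Cntf lay on the other side. Socs3 had a median of 275 CPM in glia-rich wells, up to 856, and of 20.5 CPM in the others, where the highest was 56.5. It was higher in the glia-rich wells of 10 of 12 mice, and 79.5% of its reads lay there. Cntf, a ligand known from Schwann cells, had medians of 1.05 and 0.0667 CPM, was higher in the glia-rich wells of 12 of 12 mice, and had 87.1% of its reads there. Il6st was found in both kinds of well, with medians of 73.4 CPM in glia-rich and 64.5 CPM in other wells, and was higher in the glia-rich wells of 5 of 12 mice.

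Il6ra, Osmr, Lif and Clcf1 were low in most wells. The median of Il6ra was 0.0479 CPM in glia-rich and 0.128 CPM in other wells, but 1 glia-rich well reached 264 CPM. The median of Osmr was 0 and 0.0703 CPM, with single wells at 92.2 and 64.8 CPM. Il6ra had no read in 9 of 20 glia-rich and 16 of 46 other wells, and Osmr none in 13 of 20 and 18 of 46. Lif had no read in 17 of 20 glia-rich and 43 of 46 other wells, and Clcf1 none in 16 of 20 and 41 of 46. Lif and Clcf1 thus lay in few wells.

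**Figure D3:**
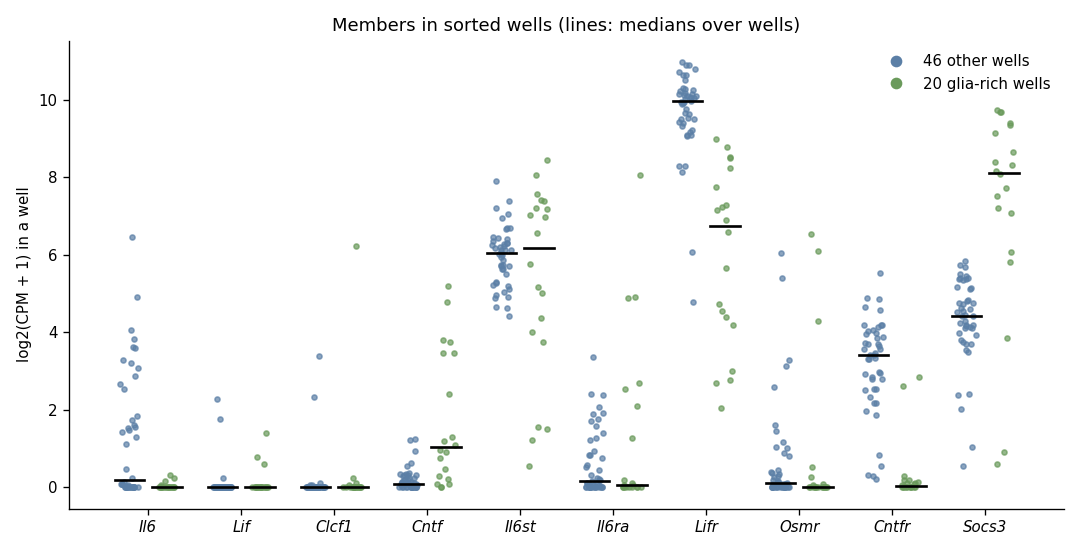
log2(CPM + 1) of each member in every sorted well (y axis), 46 other wells and 20 glia-rich wells, with a line at each median. Lifr, Cntfr and Il6 are higher in the other wells, Socs3 and Cntf in the glia-rich wells, and Il6st has medians of 64.5 CPM in other and 73.4 CPM in glia-rich wells.

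Per length, Lifr also led the members in naive sorted mice, at 58.5 ± 29.9 RPKM (SD, n = 6), followed by Socs3 at 25.2 ± 33.4 and Il6st at 6.70 ± 5.61. Without glia-rich wells Socs3 was at 9.78 ± 8.62 and Lifr at 74.6 ± 45.3. Neighbours in this order overlapped in both cases. Il6 stood at 0.376 ± 0.540 RPKM in these naive mice without glia-rich wells, where its values ran from 0 to 1.37.

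Sorted neurons after SNI or SCI were compared with naive neurons, and SNI with SCI at each time, to ask whether peripheral and central axon injury change the same genes. All 10 members had at least 20 reads in at least 1 mouse and were tested among 23507 genes, with 2 RUVr factors that absorb unwanted variation. In the 6 comparisons 0 members were called by edgeR at an adjusted p under 0.1. The background share of genes called was 0.685% after SNI 1d, 0.706% after SNI 3d, 0.017% after SCI 1d, 0% after SCI 3d, and 0% for SNI against SCI at 1d and at 3d. At an unadjusted p under 0.05, 2 members passed after SNI 1d (background 15%), 0 after SNI 3d (12.7%), 1 after SCI 1d (12.7%), 0 after SCI 3d (9.39%), 2 for SNI against SCI at 1d (10.2%) and 0 at 3d (8.47%). DESeq2, in the same order, called 1 member (6.55% of all genes), 2 (9.57%), 2 (5.2%), 0 (5.11%), 2 (4.72%) and 2 (4.21%). The comparisons with naive mice share the naive samples. Mice differed widely, with a biological coefficient of variation of 1.417, against 0.1326 in whole DRG.

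Il6 was higher in most SNI mice than in most naive mice. Over all wells the naive mice had 0.576, 1.24, 0.0311, 3.13, 0 and 0 CPM. After SNI 1d the values were 4.75, 0.524, 4.57 and 20.5 CPM, and after SNI 3d 18.2, 3.63, 0 and 3.47 CPM. In both SNI groups 3 of 4 mice were above every naive mouse and 1 was not. Wells of a mouse differed widely in Il6, with 1.45, 87.3 and 11.4 CPM in SNI 1d replicate 4 and 8.68, 0 and 0.0609 CPM in naive replicate 4. Most wells of naive replicates 5 and 6, the mice at 0, were glia-rich. After SCI the values were 0, 2.76, 0.0631 and 2.72 CPM at 1d and 0, 0.871, 0.0230 and 0 CPM at 3d, within the naive range. For SNI 1d the log2 change was 4.07 (SE 1.89, unadjusted p = 0.044, adjusted p = 0.32, edgeR). The mice carry titles that begin with FACS or with FACS2018, and the labels do not say what sets these apart. Within the FACS titles the change was 1.17 (adjusted p = 0.87). Within the FACS2018 titles both naive mice had 0 Il6 reads and the SNI 1d mice 355 and 714, so no fold can be given.

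Without the glia-rich wells most SNI mice were again above the naive mice. SNI 1d mice had 6.19, 0.679, 6.61 and 23.4 CPM of Il6 and the 3 SNI 3d mice left had 22.1, 3.90 and 3.48 CPM, while naive mice ran from 0 to 3.32 CPM. SCI 1d mice had 0, 3.59, 0.0297 and 2.90 CPM. Of these, replicate 2 was above every naive mouse and above the lowest mouse of each SNI group. The SNI 3d mice were above the naive mice by a narrow margin, 3.48 against 3.32 CPM, and the highest SCI 3d mouse had 0.932 CPM. How many of all genes separate in this way was not counted. SNI 3d replicate 3, left out because all its wells were glia-rich, had 0 Il6 reads over all wells. The log2 changes were 4.73 (SE 1.90, adjusted p = 0.15, edgeR) at 1d and 4.31 (SE 1.82, adjusted p = 0.17) at 3d, while DESeq2 gave adjusted p = 0.028 and 0.088. SNI against SCI gave log2 changes of 2.68 at 1d (adjusted p = 0.55, edgeR) and 5.32 at 3d (adjusted p = 0.67), so a difference between the injuries did not pass the test. Macrophage genes summed to 0 to 1.90 CPM in naive mice, 2.23 to 8.6 CPM after SNI 1d and 2.95 to 3.31 CPM after SNI 3d in these wells, with no macrophage gene at 0 in all mice of these groups. Their part in the Il6 level was not tested.

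Lif and Clcf1 had no read in most sorted mice. SNI 1d replicate 1 held 85 Lif reads, the other SNI 1d mice 0, and SCI 1d mice 0 in all 4. Clcf1 had 66, 0, 0 and 14 reads after SNI 1d, 1 read in 1 naive mouse and 0 in the other 5, and 0 in the SCI 1d mice. Its fitted changes had unadjusted p = 0.017 against naive and 0.011 against SCI 1d (adjusted p = 0.24 and 0.46, edgeR), and that of Lif 0.045 against SCI 1d (adjusted p = 0.48). Folds against groups at 0 reads depend on the fit and are not given. A Clcf1 value of 44.4 CPM in SCI 3d replicate 3 came mostly from 1 glia-rich well at 73.4 CPM. Cntf ran from 0.130 to 4.24 CPM in naive mice, and from 0.0145 to 6.34 CPM over the injured mice, and was not called in any comparison.

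Lifr, the most abundant receptor chain, gave 470, 962, 727, 819, 740 and 59.8 CPM in naive mice over all wells. SNI 1d mice gave 1263, 875, 1055 and 455 CPM and SNI 3d mice 1092, 943, 485 and 1347 CPM. The groups overlapped, and the log2 changes were 0.67 (SE 0.40, adjusted p = 0.45, edgeR) at 1d and 0.79 (SE 0.41, adjusted p = 0.42) at 3d. Without glia-rich wells Lifr was called in both, with log2 changes of 0.96 (SE 0.24, adjusted p = 0.041) at 1d and 1.08 (SE 0.26, adjusted p = 0.041) at 3d. It was the only member called by edgeR there, beside 8.17% of all 22620 genes at 1d and 7.57% at 3d. The median gene moved up by 0.40 and 0.39 in the same fits. Naive replicate 6, of which 1 well was left, had 35.7 CPM where the other naive mice had 556 to 1462 CPM. Without it the log2 changes were 0.32 (adjusted p = 0.58) and 0.47 (adjusted p = 0.41), so the Lifr call rested on that mouse. It was also lost without SNI 1d replicate 1 or 3 at 1d and without SNI 3d replicate 1 or 4 at 3d. SCI 3d gave a log2 change of 0.94 (adjusted p = 0.22).

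Il6st levels did not overlap between SNI and SCI mice at 1d once glia-rich wells were left out. The difference was not called by edgeR, and was called in 0 of 20 fits that left out 1 mouse. SNI 1d mice had 84.1, 75.3, 110 and 77.3 CPM and SCI 1d mice 53.8, 35.2, 62.3 and 51.4 CPM, so every SNI mouse was above every SCI mouse. Of the 10 members only Il6st did so, against 3.4% of all genes. The log2 difference was 0.78 (SE 0.21, adjusted p = 0.14, edgeR), with 0.022 by DESeq2 and 0.63 without RUVr factors. Of the 6 naive mice, 5 had 39.1 to 66.4 CPM, below every SNI 1d mouse, and replicate 5 had 291 CPM. At 3d the values were 89.6, 78.0 and 60.1 CPM after SNI and 60.2, 40.8 and 42.8 CPM after SCI, which overlapped by a narrow margin (log2 difference 0.64, SE 0.25, adjusted p = 0.67). Over all wells the groups overlapped and the 1d difference was 0.59 (adjusted p = 0.67).

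The other receptor subunits gave no call in sorted mice by edgeR, while DESeq2 called Il6ra after SNI 3d (adjusted p = 0.047) and for SNI against SCI at 3d (adjusted p = 0.070). Cntfr, over all wells, had 5.05 to 16.7 CPM in naive mice, 3.94 to 9.65 after SNI 1d, 0.104 to 14.7 after SNI 3d, 2.08 to 13.9 after SCI 1d and 3.11 to 8.68 after SCI 3d. The lowest of these, SNI 3d replicate 3, had only glia-rich wells. Il6ra ran from 0 to 4.42 CPM in naive mice, with single mice at 22.7 CPM after SNI 3d and 14.5 CPM after SCI 3d. Osmr ran from 0 to 39.5 CPM in naive mice, and each injured group held 1 mouse far above its others, at 8.79 CPM (1d) and 2.16 CPM (3d) after SNI and at 15.9 CPM (1d) and 85.4 CPM (3d) after SCI. Il6ra reached 1 CPM in 3 of 6 naive mice and Osmr in 2 of 6.

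The Socs3 values moved with the wells included. Over all wells naive mice had 87.8, 44.1, 25, 9.40, 9.54 and 261 CPM and SCI 1d mice 165, 113, 239 and 11.2 CPM, a log2 change of 1.63 (SE 0.73, unadjusted p = 0.037, adjusted p = 0.35, edgeR). The groups overlapped at both ends. Without glia-rich wells the change turned to -0.25 (adjusted p = 0.80), on 8.24, 30.9, 26.8, 9.98, 17.9 and 75.7 CPM in naive mice and 18.3, 24.4, 21.1 and 11.9 CPM in SCI 1d mice. After SNI it was 0.34 (SE 0.38, adjusted p = 0.65) at 1d and 0.28 (SE 0.41, adjusted p = 0.76) at 3d in those wells. SNI against SCI at 1d gave a log2 difference of 0.60 (SE 0.41, adjusted p = 0.54, edgeR). At 3d the values were 22.1, 33.9 and 26.5 CPM after SNI and 13.4, 18.8 and 16.2 CPM after SCI, without overlap on 3 mice a group. How many of all genes separate in this way was not counted, so the values are a description only. In that comparison edgeR called 0 of 22620 genes. Within the FACS titles over all wells the SCI 1d change was 1.80 (adjusted p = 0.53), and within the FACS2018 titles -0.28 (adjusted p = 1).

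**Figure D4:**
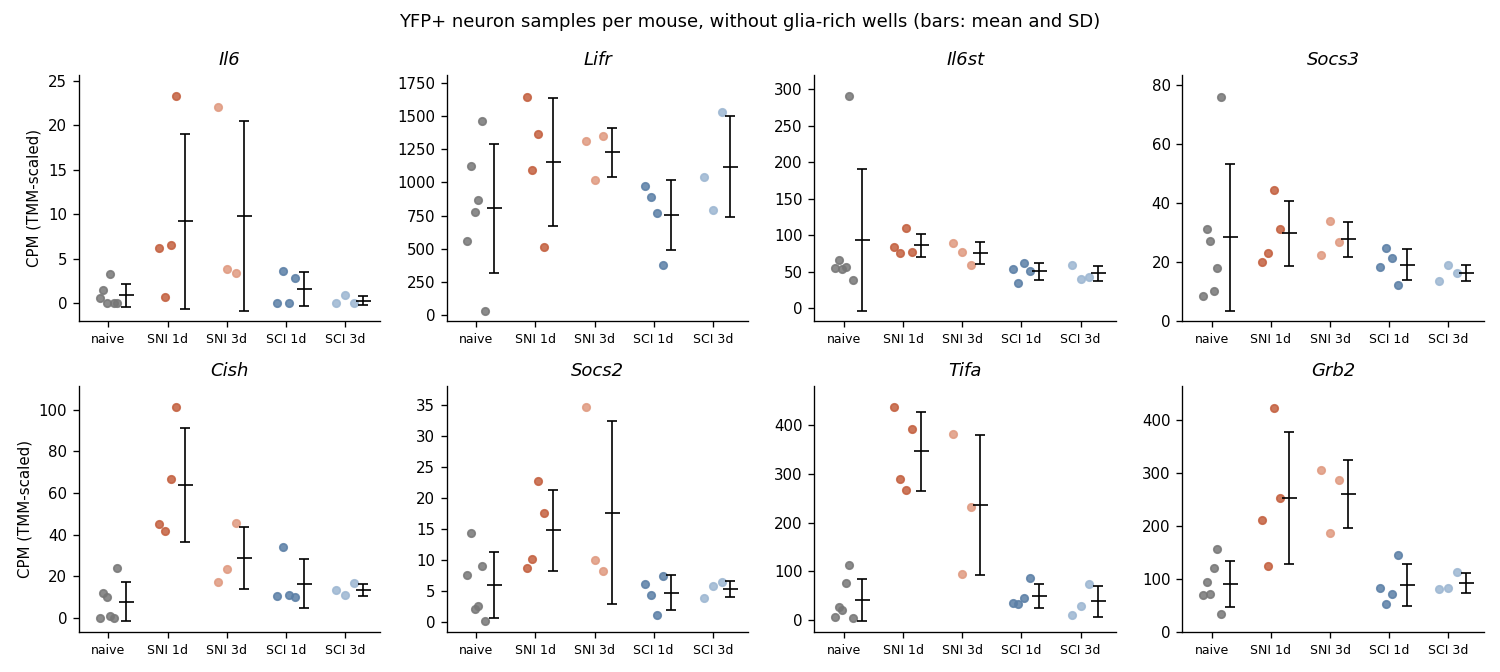
CPM per mouse in sorted neurons without glia-rich wells, for 4 members (upper row) and 4 other pathway genes (lower row), with 1 point a mouse (6 naive, 4 SNI 1d, 3 SNI 3d, 4 SCI 1d, 3 SCI 3d) and bars for mean and SD. The highest Il6 values are in SNI mice, with 1 SNI 1d mouse in the naive range. SCI 1d replicate 2, at 3.59 CPM, lies above every naive mouse and above the lowest mouse of each SNI group. In Lifr and Socs3 each injured group overlaps the naive mice. Cish and Tifa of SNI 1d mice lie above every naive mouse, and how many of all genes do so was not counted.

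Of the genes on the other lists, Tifa, Grb2 and Tsc22d3 were called after SNI in sorted neurons. Over all wells, Tifa rose at 1d (log2 change 3.27, adjusted p = 0.057, edgeR) and at 3d (2.85), the adaptor Grb2, which links receptors to the Ras pathway, rose at 3d (1.78), and Tsc22d3, a glucocorticoid response gene, fell at 1d (-1.24). The call held in 25 of 35 alternatives for Tifa at 1d, 11 of 35 for Tifa at 3d, 13 of 35 for Grb2 and 11 of 35 for Tsc22d3, and without single mice the adjusted p reached 0.11, 0.22, 0.22 and 0.23. Without the glia-rich wells, Tifa had 267 to 437 CPM after SNI 1d and 95.5 to 383 CPM after SNI 3d. Naive mice had 3.81 to 113 CPM, SCI 1d mice 34.1 to 86.9 CPM and SCI 3d mice 11.1 to 74.3 CPM. Every SNI 1d mouse was above every naive and every SCI mouse. Of all genes, 3.4% had every SNI 1d mouse above every SCI 1d mouse, and the share against the other groups was not counted. The log2 changes of Tifa were 3.69 (SE 0.56, adjusted p = 0.0047, edgeR) at 1d and 3.10 (SE 0.58, adjusted p = 0.014) at 3d. These calls stand beside 8.17% of all genes called at 1d and 7.57% at 3d.

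In the same wells, 4 of the 10 brakes and adaptors rose in each SNI comparison (Cish, Grb2, Socs2 and Socs1) and 0 fell. Of 13 STAT3 targets tested, 2 rose at 1d (Tifa and Timp1) and 4 at 3d (also Sbno2 and Il4ra), and 0 fell. These counts stand beside 8.17% of all genes called at 1d and 7.57% at 3d, of which 1621 of 1848 and 1442 of 1712 were higher. Both lists were chosen with earlier results of these data known, so the counts are a description only. The Socs1 call rested on few reads, with 0 in 5 of 6 naive mice and 56, 5, 0 and 0 after SNI 1d, and had an adjusted p of 0.89 at 1d and 0.70 at 3d without naive replicate 6 (edgeR). Cish, a SOCS family member best known as a STAT5 target, had 42.0 to 101 CPM after SNI 1d and 17.1 to 45.4 CPM after SNI 3d, against 0.0504 to 23.9 CPM in naive mice. It rose by a log2 change of 3.82 (SE 0.81, adjusted p = 0.018, edgeR) at 1d, called in 20 of 20 fits that left out 1 mouse, and by 2.63 (adjusted p = 0.087) at 3d, called in 12 of 20. Grb2 rose by 1.61 (adjusted p = 0.011) and 1.67 (adjusted p = 0.016). Socs2, which restrains growth hormone and cytokine receptors, rose by 2.01 (adjusted p = 0.082) and 2.10 (adjusted p = 0.088), and without naive replicate 6 by 1.06 (adjusted p = 0.35) and 1.36 (adjusted p = 0.25). Timp1, an inhibitor of metalloproteinases listed as a STAT3 target, rose by 6.15 (adjusted p = 0.029) and 5.13 (adjusted p = 0.058) from naive levels of 0 to 3.98 CPM. Sbno2 rose at 3d by 2.46 (adjusted p = 0.043). Against SCI 1d, SNI 1d mice were higher in Tifa (log2 difference 2.79, adjusted p = 0.077) and Grb2 (1.5, adjusted p = 0.077), beside 0.889% of all genes called, while the difference in Cish was 2.02 (adjusted p = 0.34). These calls held for Tifa in 13 and for Grb2 in 12 of 20 fits without 1 mouse, with adjusted p up to 0.23 and 0.25, and not without RUVr factors (adjusted p = 0.49 and 0.43).

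The JAK and STAT3 genes themselves did not pass in those wells. After SNI 3d, Jak2 had a log2 change of 1.33 (SE 0.53, adjusted p = 0.15, edgeR) and Jak1 one of 0.55 (adjusted p = 0.23). Stat3 ran from 211 to 346 CPM after SNI 1d and from 280 to 363 CPM after SNI 3d, against 137 to 348 CPM in naive mice, with log2 changes of 0.29 at 1d (adjusted p = 0.38) and 0.52 at 3d (unadjusted p = 0.018, adjusted p = 0.14). Its difference between SNI and SCI at 1d was 0.66 (unadjusted p = 0.0046, adjusted p = 0.19, edgeR, and 0.055 by DESeq2). Without RUVr factors, Tifa, Cish, Grb2, Socs2, Timp1 and Sbno2 kept their direction, but none was called in either SNI comparison. Tsc22d3, at 284 to 436 CPM after SNI 1d against 657 to 955 CPM in naive mice, fell by 1.12 on the log2 scale (adjusted p = 0.0055) and was called without the factors too (adjusted p = 0.035). Cdkn1a, also on the glucocorticoid list, went the other way after SNI 3d. It rose by a log2 change of 1.94 (SE 0.48, adjusted p = 0.043, edgeR) and was not called without the factors (adjusted p = 0.36).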

How the data were processed

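RNA-seq of whole L4 DRG (8 libraries) and sorted YFP-positive L4 neurons (66 wells of 22 mice) was deposited as raw HTSeq read counts per gene, made by the authors. Per the submitters' processing notes, reads were trimmed with cutadapt, aligned with STAR 2.5.3a to mm10 and counted with HTSeq 0.6.1. RNA was rRNA-depleted for whole DRG, and SMARTer kits were used. Counting by strand is not given in the sources used here. Lines with no gene (7.7 to 9.8% of whole DRG reads and 2.0 to 11.8% of sorted reads without a feature) were left out. Of 53379 IDs, 53274 were named by GENCODE vM21. The tables of the whole series hold 123 per-sample columns that belong to no sample here, from earlier sciatic injury and knockout mice, as well as the authors' fold changes and p-values. These were not used.

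Wells were summed per mouse. CPM used TMM-scaled library sizes. Counts were tested with edgeR 4.0.16 (limma 3.58.1, R 4.3.3) by the quasi-likelihood test, Benjamini-Hochberg adjusted p under 0.1 over all genes, keeping genes that averaged 10 or more reads in whole DRG, or had 20 reads in at least 1 mouse and 2 RUVr factors in sorted mice. The code was tested on simulated data. For sorted mice these varied less than the real data, so the test covers the code and not the sorted calls. DESeq2 1.42.0, other scaling, filters, factors, sets, wells and left-out libraries were alternatives. Fits without glia-rich wells dropped SNI 3d replicate 3 and SCI 3d replicate 3, which had no other well. Samples were not paired by the numbers in their titles. Deviations of same-numbered samples correlated at -0.16 to 0.26 in 4 whole DRG pairs and -0.007 to 0.41 in 20 sorted pairs. Pairs with unlike numbers were not compared, so pairing is not excluded. Python 3.11.15, numpy 2.4.6, pandas 2.3.3 and matplotlib 3.10.9 were used. Members and lists were chosen with earlier results of these data known. All 10 members are named; of other lists, Jak1, Jak2, Stat3, up to 12 genes called in whole DRG and up to 5 a comparison in sorted mice. A list of further ligands and receptors is not reported here. Cd163 and Cx3cr1, and Cish, Socs1, Socs2, Timp1, Sbno2 and Il4ra without glia-rich wells, were named after their values were seen.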

Additional observations from a re-analysis of the deposited data

Results flagged for a closer look

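A sample was marked where its gap to the nearest other of its group was too large for the group's range (Dixon's 95% limit). Of 62 groups with enough reads, 16 held such a sample, where chance gives about 1 in 20. In whole DRG the only one was Clcf1 in uninjured replicate 1, at 1.78 CPM. The other marks fell on sorted mice, in CPM over all wells. Osmr was marked in every group, at 39.5 in naive replicate 5, 8.79 in SNI 1d replicate 3, 2.16 in SNI 3d replicate 2, 15.9 in SCI 1d replicate 4 and 85.4 in SCI 3d replicate 3. Il6ra was marked at 22.7 in SNI 3d replicate 1 and 14.5 in SCI 3d replicate 3. That mouse also held the Clcf1 value of 44.4. Socs3 was marked at 261 in naive replicate 6 and 282 in SNI 3d replicate 3, and Cntf at 4.24 in naive replicate 6 and 2.37 in SNI 3d replicate 1. Il6st was marked at 196 in naive replicate 5, Il6 at 0.871 in SCI 3d replicate 2 and Lif at 1.72 in SNI 1d replicate 1.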

How the results depend on the processing

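In whole DRG the count of 2 members called was 2 in 14 of 15 alternatives, and 0 with the red blood cell level as a covariate, added after seeing the data. That covariate also turned the sign of uncalled genes: Lif -0.043, Clcf1 -0.62, Lifr 0.020, Cntfr -0.21 and Jak1 -0.050. Leaving out single libraries moved the Clcf1 change between -0.080 and 0.29 and the Jak1 change between -0.044 and 0.15. In sorted mice, where edgeR called 0 members, DESeq2 called 1 after SNI 1d, 2 after SNI 3d, 2 after SCI 1d, and 2 for SNI against SCI at 1d and 2 at 3d, among them Lif or Clcf1 in comparisons where 1 group had 0 reads. Without glia-rich wells 1 was called after SNI 1d and 1 after SNI 3d. There DESeq2 called 2 and 3 members, a fit with no RUVr factors 0 and 0, and fits without 1 mouse 0 to 2 at 1d and 0 to 1 at 3d. The count was 0 at 1d without naive replicate 6, SNI 1d replicate 1 or SNI 1d replicate 3 and 2 without naive replicate 5, and 0 at 3d without naive replicate 6, SNI 3d replicate 1 or SNI 3d replicate 4. With the replicate block, for which the labels give only a shared number, 2 whole DRG members were called, and without glia-rich wells 0 after SNI 3d. The Socs3 change after SCI 1d was -0.28 within the FACS2018 titles and -0.25 without glia-rich wells, and the Lif difference at 1d ran from -0.014 to 8.14 without single mice. The causes were not tested. Few reads limit Il6 and Cntf in whole DRG, and Lif and Clcf1 in sorted mice.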
